A study of Mus musculus with 6 samples.

Results

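The enzymes of glycolysis and the citric acid cycle were followed in parotid salivary glands of mice, with and without radiation. The 39 genes were chosen by name and comprise the glucose transporter Slc2a1, the enzymes of glycolysis, the lactate and pyruvate dehydrogenases with their control kinases, pyruvate carboxylase and the citric acid cycle. All 39 were found by symbol among the 52636 genes listed, and all 39 passed the filter on low counts that kept 12885 genes. The mice were FVB, an inbred strain, and 28 days old, and RNA was taken from the parotid. The untreated group held 3 libraries, and the irradiated group held 3 libraries from mice given a single radiation dose of 5 Gy. The labels place the dose text on the untreated samples as well, where it was not applied here, and do not give the time from irradiation to collection. They do not say that each library came from its own mouse, so the p-values measure the spread between these libraries, which may be technical.

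Glycolysis splits glucose into pyruvate in the cytosol with a small gain of ATP. Pyruvate is then either reduced to lactate or carried into the mitochondrion, where pyruvate dehydrogenase turns it into acetyl-CoA for the citric acid cycle. The acinar cells of a salivary gland spend much ATP on making and exporting protein and on moving ions. Many steps have several isozymes, each from its own gene and with its own tissue pattern: Pfkm, Eno3 and Pgam2 are the forms of skeletal muscle, Hk1 and Pfkl are widely expressed, and Aldoc is best known from brain.

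Each library held between 7108359 and 15036193 counts assigned to genes, with irradiated replicate 2 the shallowest. The defining acinar transcripts Bpifa2 and Amy1 were the leading markers in every library, at 256400 to 344170 and 90223 to 116080 CPM (the usual count scaled to library size, here with TMM factors). Irradiated replicate 2 also held Prol1 at 441.5 CPM, against 32.7 to 40.8 in the other libraries. Of 8 acinar markers 1 was called, Car6, with means of 15243 CPM in untreated and 8802 CPM in irradiated libraries. Its log2 fold change was -0.79 (adjusted p = 0.0329 by edgeR). Aqp5 and Bhlha15 were also lower in all irradiated libraries, and the other acinar markers had overlapping groups. Of 7 duct markers, Krt18 and Krt7 were lower in all irradiated libraries (log2 fold changes -0.53 and -0.48), and none was called. Cdkn1a, the p53 target that encodes p21, rose in all 3 irradiated libraries, which stood at 21.7, 25.9 and 18.01 CPM against 1.83 to 2.26 CPM in the untreated ones (log2 fold change 3.38, SE 0.19, adjusted p = 2.031e-09 by edgeR). The summed level of 12 skeletal muscle markers was 625 to 788 CPM in the untreated libraries, 531 and 618 in irradiated replicates 1 and 2, and 199 in irradiated replicate 3. Of these markers Pygm had no counts in any library, and Acta1, Ckm and Mylpf were all lowest in irradiated replicate 3. Acta1, Ckm, Tnnt3, Tnni2, Mylpf and Tnnc2, the last with at most 2 counts, were lower in all irradiated libraries. The groups overlapped for Myh1, Myh2, Myh4, Pvalb and Atp2a1, and no muscle marker was called. Myh2 was lowest in irradiated replicate 1, at 1.46 CPM against 1.81 CPM in irradiated replicate 3. The summed fat cell markers ranged from 216 to 424 CPM in untreated and from 154 to 265 CPM in irradiated libraries. Summed T cell markers were 0.61 to 7.86 CPM in untreated and 16.7 to 23.9 CPM in irradiated libraries, and B cell markers 0.349 to 12.6 and 25.1 to 25.9 CPM. Their part in the members' values was not tested. Reads that did not align made up 10.01% in irradiated replicate 2 and 3.753% to 4.326% elsewhere. In whole tissue, fewer cells of a type and less RNA per cell cannot be told apart.

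Part of the members' sequence occurs elsewhere in the genome, which sets how well each can be counted. Of all 50-base windows in the longest coding transcript of Gapdh, which encodes the glyceraldehyde phosphate dehydrogenase of glycolysis, 82.5% also occur exactly in transcripts of other annotated genes. These are 218 genes, of which 213 are annotated as pseudogenes. The share was 72.2% for Eno1, 68.0% for Pgk1, 41.5% for Pgam1, 34.4% for Pkm and 30.3% for Pdhb, and between 13.5% and 27.0% for Ldhb, Suclg2, Gpi1, Ldha and Aldoa. Reads placed in more than 1 site stood in a row of their own, at 13.3% to 18.4% of all reads per library, and such reads are counted for no gene. How far this lowers each member's level was not tested. The windows below, each inside 1 coding exon, are those found in the most other genes and are shown as examples for the 2 members with the largest shares, picked after the shares were seen. The Gapdh window lies on chromosome 6 (chr6:125162898-125162947, minus strand, GRCm38) and recurs in 83 other genes, and the Eno1 window on chromosome 4 (chr4:150245115-150245164, plus strand) in 5.

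Gapdh: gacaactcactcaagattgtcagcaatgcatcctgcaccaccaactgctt

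Eno1: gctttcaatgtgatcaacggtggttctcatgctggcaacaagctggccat

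Gapdh, used widely as a reference gene, was counted at 10.7, 13.4 and 13.5 CPM in the untreated and 16.7, 13.1 and 15.8 CPM in the irradiated libraries. The 209 of its pseudogenes that the files list together held 321, 314 and 353 counts without irradiation and 447, 178 and 297 counts with it. Gapdh itself held 130, 153 and 203, then 251, 109 and 183, fewer than its copies in every library.

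**Figure D1:**
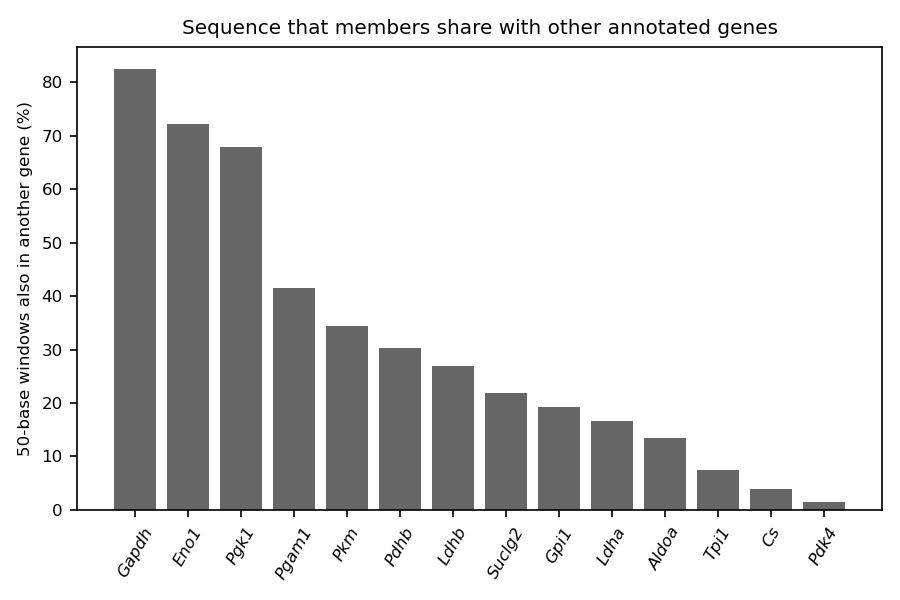
Share of 50-base windows of each member's longest coding transcript that also occurs in a transcript of another annotated gene, in percent, for members above 1%. Gapdh, Eno1 and Pgk1 stand highest, at 82.5%, 72.2% and 68.0%.

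The levels in untreated glands give the starting point. They are compared here per kilobase of annotated exon, since a longer transcript yields more reads. A gene with long, little-used exons is placed too low on this scale. Aldoa, the aldolase of muscle and most other tissues, was highest at 77.0 ± 4.29 CPM per kilobase (SD, n = 3). It was followed by Mdh1, the cytosolic malate dehydrogenase, at 48.3 ± 1.13. Tpi1, triose phosphate isomerase, at 32.7 ± 3.39, and Pdha1, the catalytic alpha subunit of pyruvate dehydrogenase, at 31.4 ± 4.48, did not differ beyond their spread. Idh2, the mitochondrial NADP-dependent isocitrate dehydrogenase, stood at 23.7 ± 0.361. At the lower end, the phosphofructokinases Pfkl and Pfkp reached 1.80 ± 0.0302 and 0.580 ± 0.0580 CPM per kilobase, the transporter Slc2a1 1.88 ± 0.539, and Aldoc 0.523 ± 0.255. The middle of the order was close on this scale: Dld, Cs, Pcx and Eno1 lay between 12.7 and 13.1 CPM per kilobase, within their spread. That closeness depends on the length used. Annotated exons run to 5379 bases for Eno1 and 4753 for Pcx, and the longest coding transcripts to 2027 and 4148. Sequence shared with other genes limits the order too. It made up 72.2% of the windows for Eno1, 4% for Cs and 0% for Dld and Pcx, and its effect on the levels was not tested. All 39 members together took 0.177% to 0.190% of the counts in untreated libraries and 0.183% to 0.211% in irradiated ones. Their summed level was 1913 ± 43.7 CPM in untreated and 1904 ± 126 CPM in irradiated libraries.

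None of the 39 members was called higher or lower in irradiated libraries. The test was the quasi-likelihood test of edgeR, adjusted over all 12885 genes by the Benjamini-Hochberg method, with a threshold of 0.05. Over all genes 1.00% were called, 0.652% higher and 0.349% lower. These were 84 higher and 45 lower genes, a split that became 259 and 22 when libraries were scaled by their totals alone. The lowest adjusted p of a member was 0.143, for Idh3a. At an unadjusted p under 0.05 there were 5 members, or 12.8%, against 15.0% of all genes. The groups did not overlap for 4 members that were higher in irradiated libraries (10.3%) and for 3 that were lower (7.69%), against 10.6% of all genes in each direction. These shares lay near the background. With scaling by totals alone, 13 members (33.3%) were at an unadjusted p under 0.05 against 16.3% of all genes. With DESeq2 there were 2 (5.13%) against 5.79% of 25403 genes. DESeq2 was run without the filter on low counts, so its background covers a wider set of genes than the 12885. In the main fit the members' median log2 fold change was 0.02, with 23 positive and 16 negative values, and the median of all genes was -0.01. Under scaling by totals 35 of the 39 were positive, with a median of 0.16 beside 0.14 for all genes, so the signs of small differences depend on the scaling. The median size of change regardless of sign was 0.10 for members and 0.19 for all genes. A missed threshold does not show that levels were equal, so the intervals matter: the 95% interval of the fold change lay within 1.5-fold in either direction for 34 of the 39 members, and within 2-fold for 37. The exceptions to the wider bound were Aldoc and Pdk4.

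**Figure D2:**
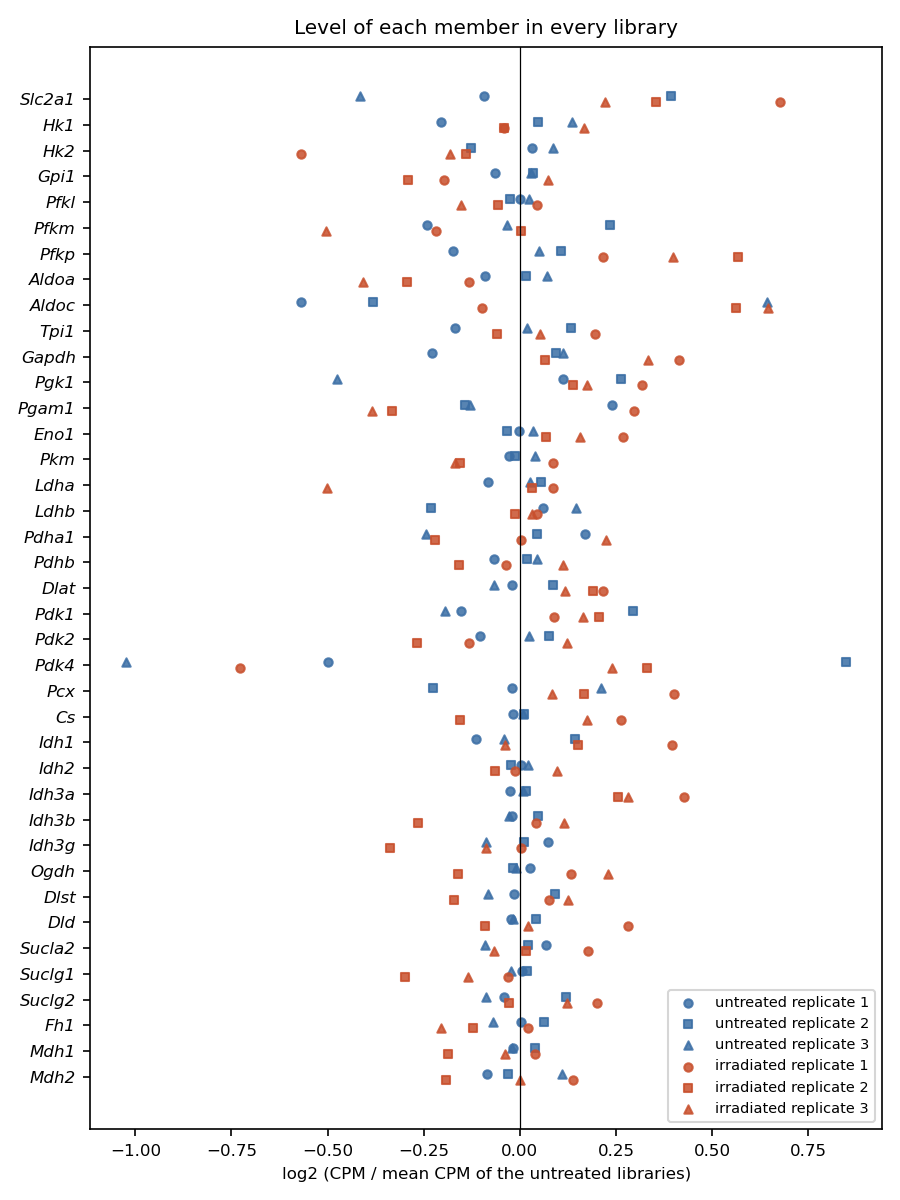
Level of each member in every library as log2 of its CPM over the mean of the untreated libraries (blue untreated, red irradiated, one symbol per replicate number). Most points lie close to 0, Pdk4 and Aldoc spread most among the untreated libraries, and Idh3a, Pfkp, Eno1 and Dlat have all 3 irradiated libraries above the untreated ones.

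**Figure D3:**
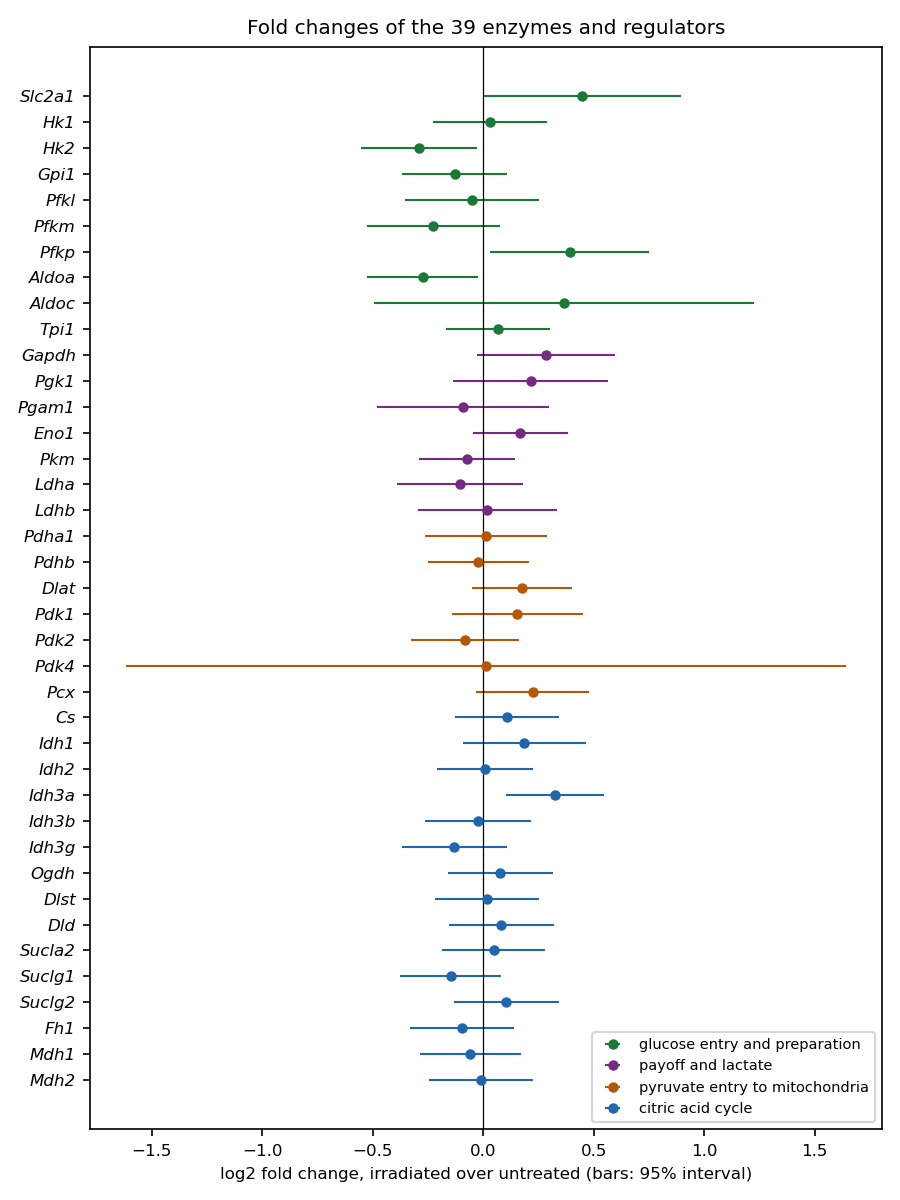
Log2 fold change of irradiated over untreated libraries for the 39 members, with 95% intervals from edgeR's quasi-likelihood fit, in pathway order and coloured by role. Values run from -0.29 for Hk2 to 0.45 for Slc2a1, and no member passed the adjusted threshold.

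The first steps of glycolysis held the widest differences, in both directions. Of its 10 members, which bring glucose into the cell and split it into triose phosphates, 5 had positive and 5 negative fold changes, and the median was -0.01. The highest values, of Slc2a1, Pfkp and Aldoc, rested on few counts. Their SEs were 0.21, 0.17 and 0.41, against a median of 0.115 over all members. The lowest values, of Hk2 and Aldoa, had SEs of 0.13 and 0.12. Slc2a1 (chromosome 4, 119108711 to 119137983, GRCm38), the basal glucose transporter GLUT1, stood at 6.16, 8.64 and 4.93 CPM in untreated and 10.5, 8.40 and 7.67 CPM in irradiated libraries. Untreated replicate 2 lay within the irradiated range, so the groups overlapped. The log2 fold change was 0.45 (SE 0.21), at an adjusted p of 0.331 by edgeR. Without untreated replicate 3 it was 0.27, and without untreated replicate 2 it was 0.69.

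The hexokinases trap glucose as glucose 6-phosphate. Hk2 (chromosome 6, 82725025 to 82774454), the insulin-responsive form, was counted at 30.6, 27.4 and 31.8 CPM in untreated and 20.1, 27.1 and 26.4 CPM in irradiated libraries. The groups did not overlap, but irradiated replicate 2 and untreated replicate 2 were nearly equal. The log2 fold change was -0.29 (SE 0.13), with an adjusted p of 0.272 by edgeR. It was -0.16 without irradiated replicate 1, its lowest library, and -0.15 with scaling by totals. Hk1 was 21.9 ± 2.61 CPM in untreated and 22.4 ± 1.91 CPM in irradiated libraries (SD, n = 3), and the log2 fold change was 0.03. Per kilobase, Hk1 made up 33.8% ± 3.23 of the sum of Hk1 and Hk2 in untreated and 39.1% ± 3.56 in irradiated libraries, a difference of 5.28 percentage points with overlapping groups. The shares depend on the length used: per kilobase of the longest coding transcript, a choice made after the data were seen, Hk1 made up 48.5% ± 3.63 and 54.1% ± 3.72.

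Gpi1, which turns glucose 6-phosphate into the fructose form, had a log2 fold change of -0.13 (SE 0.11). Phosphofructokinase, the main point of control of glycolysis, is built from 3 isozymes. Pfkm, the muscle form, supplied 81.3% ± 2.26 of the family per kilobase in untreated libraries, Pfkl, the liver form, 14.1% ± 2.06, and Pfkp, the platelet form, 4.53% ± 0.257. Per kilobase of the longest coding transcript the shares were 70.3% ± 2.87 for Pfkm, 18.8% ± 2.51 for Pfkl and 10.9% ± 0.503 for Pfkp, in the same order but over 2 times higher for Pfkp, whose annotated exons run to 13401 bases and its longest coding transcript to 4145. Pfkp (chromosome 13, 6579768 to 6648777) was counted at 6.90, 8.38 and 8.06 CPM in untreated and 9.04, 11.5 and 10.3 CPM in irradiated libraries. Every irradiated library was above every untreated one. The log2 fold change was 0.39 (SE 0.17), with an adjusted p of 0.286 by edgeR, and the share of Pfkp in the family was 4.24% to 4.74% in untreated and 5.83% to 7.82% in irradiated libraries. Of 11 isozyme shares compared, Pfkp alone had groups that did not overlap, with an exact two-sided permutation p of 0.1, the smallest that 3 against 3 libraries allow, and 0.44 after Benjamini-Hochberg adjustment over the 11 shares. On the length of the longest coding transcript, Pfkp stood at 15.6% ± 2.05 in irradiated libraries, and the groups did not overlap for Pfkp or for Pfkm, which was lower there at 64.9% ± 3.05. Pfkl had a log2 fold change of -0.05 (SE 0.14).

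Pfkm stood at 29.6, 41.3 and 34.3 CPM in untreated and 30.2, 35.2 and 24.7 CPM in irradiated libraries. The lowest value was in irradiated replicate 3, the library with the lowest skeletal muscle markers, and the log2 fold change was -0.23 (SE 0.14) with all libraries, -0.11 without that one and -0.10 without untreated replicate 2, its highest library. Aldoa (chromosome 7, 126795234 to 126800751) was counted at 210.5, 226 and 235 CPM in untreated and 204, 183 and 169 CPM in irradiated libraries. All irradiated libraries were below all untreated ones, and irradiated replicate 3 was again lowest. The fitted log2 difference was -0.27 (SE 0.12; adjusted p = 0.284 by edgeR), and -0.21 without irradiated replicate 3 and -0.12 with scaling by totals. Ldha, which reduces pyruvate to lactate, was 46.2 CPM in irradiated replicate 3 and 61.7 to 69.4 CPM in the other libraries of both groups. Its log2 fold change was -0.10 (SE 0.13) with all libraries and 0.06 without irradiated replicate 3. Eno3 and Pgam2, the enolase and phosphoglycerate mutase of muscle, are no members and were picked after their values were seen. They were likewise lowest there, at 14.6 against 19.0 to 35.4 CPM for Eno3 and 2.07 against 6.25 to 12.7 CPM for Pgam2. Fbp2, the fructose bisphosphatase of muscle and no member either, went the other way among irradiated libraries. It stood at 15.3 CPM in irradiated replicate 3, against 12.4 and 14.3 CPM in irradiated replicates 1 and 2. The part of the muscle signal in the fold changes of Pfkm, Aldoa and Ldha was not tested. Leaving out irradiated replicate 3 does not remove the difference in muscle markers. Their sums in irradiated replicates 1 and 2, 531 and 618 CPM, also lay below the lowest untreated sum of 625 CPM.

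**Figure D4:**
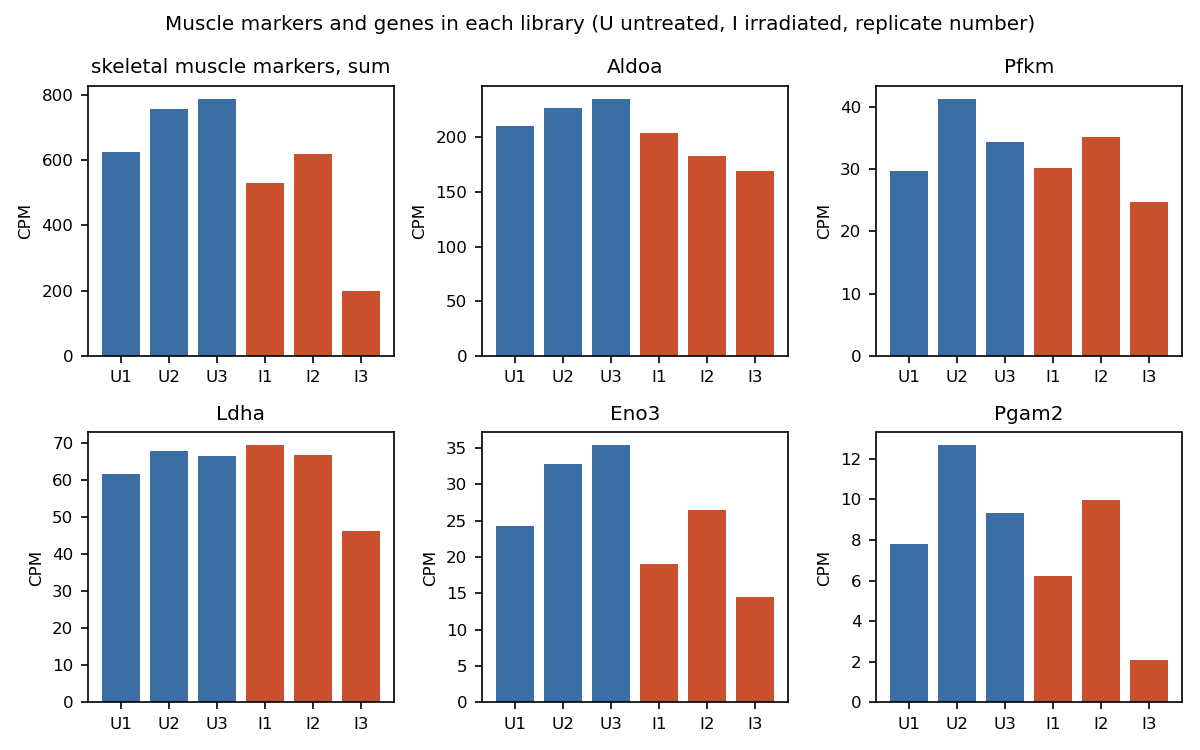
Summed CPM of 12 skeletal muscle markers, and CPM of Aldoa, Pfkm, Ldha, Eno3 and Pgam2, as bars per library (blue untreated, red irradiated). Irradiated replicate 3 has the lowest bar in every panel, at 199 CPM for the marker sum.

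Aldoc, the brain-type aldolase, rested on 14 to 40 counts per library. Its levels were 1.15, 1.31 and 2.66 CPM in untreated and 1.60, 2.52 and 2.67 CPM in irradiated libraries, and untreated replicate 3 lay with the irradiated ones. The log2 fold change was 0.36 (SE 0.41), and 0.86 without untreated replicate 3. Tpi1 had a log2 fold change of 0.07 (SE 0.11).

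The later steps of glycolysis, which yields ATP and pyruvate, together with lactate dehydrogenase, had a median log2 fold change of 0.02 over 7 members. Gapdh, at the levels given above, had overlapping groups and a log2 fold change of 0.29 (SE 0.15; adjusted p = 0.384 by edgeR), and 0.18 without untreated replicate 1. Eno1 (chromosome 4, 150236721 to 150248879), the enolase of most tissues, was 68.5, 67.0 and 70.2 CPM in untreated and 82.5, 71.9 and 76.4 CPM in irradiated libraries. The groups did not overlap, and the log2 fold change was 0.17 (SE 0.10) with an adjusted p of 0.480, and 0.31 with scaling by totals. Eno1b, a near copy counted in its own row, held 124 to 173 counts in untreated and 65 to 170 in irradiated libraries, with an adjusted p of 0.78.

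Pgk1, phosphoglycerate kinase, was 51.1, 56.6 and 34.0 CPM in untreated and 58.9, 52.0 and 53.3 CPM in irradiated libraries. The low value was that of untreated replicate 3. That library also held 61 counts, or 4.06 CPM, in Pgk1-rs7, a copy of Pgk1, against 2 to 5 counts in the other libraries. Whether reads of Pgk1 were placed there was not tested. The log2 fold change was 0.22 (SE 0.16) with all libraries and 0.02 without untreated replicate 3. Pgam1, phosphoglycerate mutase, Pkm, pyruvate kinase, and Ldhb, the heart-type lactate dehydrogenase, had log2 fold changes of -0.09 (SE 0.18), -0.07 (SE 0.10) and 0.02 (SE 0.15). Ldha supplied 72.2% ± 3.27 of lactate dehydrogenase per kilobase in untreated and 69.9% ± 4.94 in irradiated libraries, and the exact permutation p was 0.6.

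**Figure D5:**
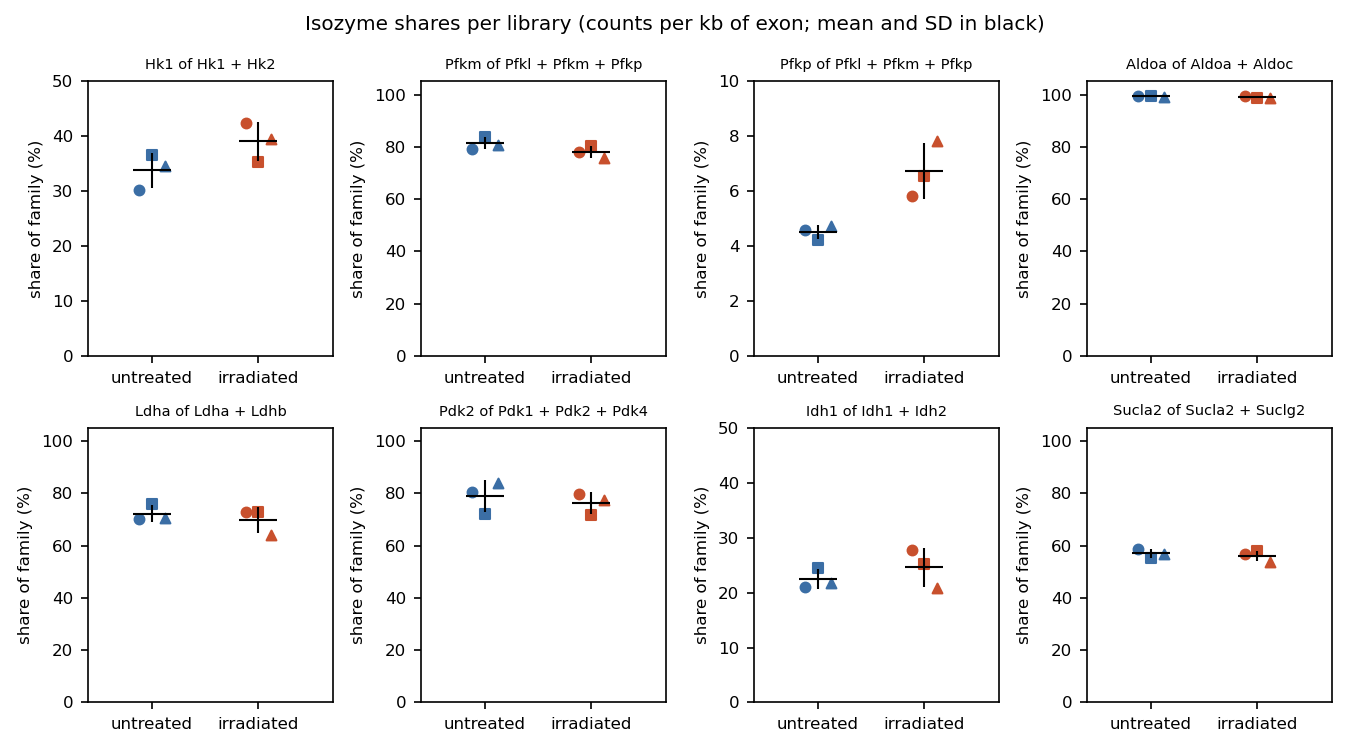
Share of 1 isozyme in the sum of its family's members, from counts per kilobase of exon. Percentages are shown for each library with the mean and SD. The Pfkp share lies at 4.24% to 4.74% in untreated and 5.83% to 7.82% in irradiated libraries, and the groups overlap in the other panels.

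At the entry of pyruvate into the mitochondrion, 5 of 7 members had positive fold changes and the median was 0.01. The pyruvate dehydrogenase subunits Pdha1 and Pdhb had log2 fold changes of 0.01 (SE 0.13) and -0.02 (SE 0.11). Dlat (chromosome 9, 50634633 to 50659780), the acetyl-transferring core of that complex, was 23.7, 25.5 and 22.9 CPM in untreated and 27.9, 27.4 and 26.0 CPM in irradiated libraries. All irradiated libraries were above all untreated ones by a narrow gap, and the log2 fold change was 0.18 (SE 0.11) with an adjusted p of 0.487 by edgeR. It was 0.11 with length and GC correction and 0.33 with scaling by totals.

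The pyruvate dehydrogenase kinases switch the complex off. Among Pdk1, Pdk2 and Pdk4, Pdk2 was the main form, with 78.9% ± 6.22 of their sum per kilobase in untreated libraries. Pdk3, which is no member, was left out of that sum and stood at 1.61 CPM per kilobase there, against 14.7 for Pdk2. The log2 fold change of Pdk2 was -0.08 (SE 0.12). Pdk1, a target of hypoxia signalling, had 0.16 (SE 0.14). Pdk4 (chromosome 6, 5483351 to 5496309), which fasting and glucocorticoids induce, was the most variable member. It stood at 4.60, 11.7 and 3.20 CPM in untreated and 3.92, 8.16 and 7.67 CPM in irradiated libraries. Untreated replicate 2 was the highest of all 6 libraries, the log2 fold change was 0.01 (SE 0.62), and its value ran from -0.33 without untreated replicate 3 to 0.74 without untreated replicate 2. Pcx, pyruvate carboxylase, which feeds oxaloacetate into the cycle, was 60.6, 52.5 and 71.2 CPM in untreated and 81.1, 68.9 and 65.1 CPM in irradiated libraries. The groups overlapped, and the fitted log2 difference was 0.22 (SE 0.12; adjusted p = 0.415 by edgeR).

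The 15 members of the citric acid cycle had a median log2 fold change of 0.02, with 9 positive and 6 negative values. They were even among untreated libraries, where their median coefficient of variation was 2.95%, against 10.6% among irradiated ones. Over all 39 members it was 6.10% and 11.4%, and 28 of them varied more among the irradiated libraries. Over all genes tested the medians were 14.1% and 14.0%. Irradiated replicate 1 was the highest irradiated library for 24 members and irradiated replicate 2, the shallowest, the lowest for 22.

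Idh3a (chromosome 9, 54586334 to 54604661), the catalytic alpha subunit of the NAD-dependent isocitrate dehydrogenase, had the smallest p of all members. It was counted at 37.3, 38.4 and 38.2 CPM in untreated and 51.0, 45.3 and 46.1 CPM in irradiated libraries. The 3 untreated values lay close together, and all irradiated ones were higher. The log2 fold change was 0.32 (SE 0.11), with an interval of 0.10 to 0.55, and the adjusted p was 0.143 by edgeR. Of the 12 alternatives run, 1 put it past the threshold, that in which libraries were scaled by their totals alone (log2 fold change 0.47, adjusted p = 0.0287 by edgeR). That scaling moved the median of all genes to 0.14. Without 1 library at a time the value ran from 0.27 to 0.36. The other subunits of the enzyme, Idh3b and Idh3g, had log2 fold changes of -0.02 (SE 0.12) and -0.13 (SE 0.11). Per kilobase, Idh3g stood at 2.46 ± 0.166 times Idh3a in untreated and 1.79 ± 0.142 times in irradiated libraries, and Idh3b at 1.87 ± 0.0434 and 1.47 ± 0.182 times. These ratios were chosen after the values were seen and were not tested.

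Citrate synthase, Cs, which opens the cycle, stood at 74.8 ± 0.859 CPM in untreated and 80.5 ± 11.8 CPM in irradiated libraries (SD, n = 3), and the fitted log2 difference was 0.11 (SE 0.11). The NADP-dependent dehydrogenases Idh1, of the cytosol, and Idh2 had 0.19 (SE 0.13) and 0.01 (SE 0.10), and Idh1 was 22.5% ± 1.84 of their sum per kilobase in untreated libraries. Ogdh, Dlst and Dld form the oxoglutarate dehydrogenase complex, and Dld serves pyruvate dehydrogenase too. Their log2 fold changes were 0.08 (SE 0.11), 0.02 (SE 0.11) and 0.08 (SE 0.11).

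Succinyl-CoA ligase joins Suclg1 with either Sucla2, for ATP, or Suclg2, for GTP. Suclg1 (chromosome 6, 73248382 to 73276911) was 37.9, 38.3 and 37.2 CPM in untreated and 37.0, 30.7 and 34.5 CPM in irradiated libraries. The groups did not overlap, though irradiated replicate 1 lay just under the untreated range, and the log2 fold change was -0.15 (SE 0.11), with an adjusted p of 0.578 by edgeR. It was -0.08 without irradiated replicate 2 and -0.0036 with scaling by totals. Sucla2 and Suclg2 had 0.05 (SE 0.11) and 0.10 (SE 0.11), and Sucla2 supplied 57.0% ± 1.77 of their sum per kilobase in untreated and 56.1% ± 2.07 in irradiated libraries. Fh1, fumarase, had -0.10 (SE 0.11). The malate dehydrogenases Mdh1 and Mdh2 had -0.06 (SE 0.11) and -0.01 (SE 0.11).

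Genes that work beside the members showed no call either. Of 56 partner genes (transporters, other isozymes, kinases and phosphatases of the control points, shuttles and gluconeogenic enzymes) 47 passed the filter, and 0 were called by edgeR, with 8 at an unadjusted p under 0.05, or 17.0% against 15.0% of all genes. The groups did not overlap for 3 partners that were higher and 3 that were lower in irradiated libraries, 6.38% each, against 10.6% of all genes in each direction. Their median was 0.03 on the log2 scale, with 25 positive and 22 negative values. The 4 partners with the smallest p follow. Pdpr, a regulatory subunit of the pyruvate dehydrogenase phosphatase, stood at 9.77, 11.5 and 8.72 CPM in untreated and 13.4, 13.1 and 15.9 CPM in irradiated libraries, at a log2 difference of 0.50 (SE 0.16). Fbp2, the muscle fructose bisphosphatase, stood at 18.5 ± 0.193 CPM in untreated and 14.0 ± 1.47 CPM in irradiated libraries (SD, n = 3), at -0.41 (SE 0.13). Pck2, the mitochondrial enzyme that makes phosphoenolpyruvate, stood at 36.2 ± 0.435 and 28.2 ± 4.65 CPM, at -0.36 (SE 0.12). Slc25a10, the dicarboxylate carrier, stood at 29.2 ± 2.74 and 22.9 ± 2.30 CPM, at -0.35 (SE 0.12). Each of the 4 had groups that did not overlap, and the adjusted p values by edgeR lay between 0.122 and 0.157.

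The promoters were searched for letters bound by factors that control this pathway. RefSeq promoters (250 bases before to 50 after a gene start, GRCm38.p6) matched 38 of the 39 members, Idh3a being the one left without an entry. The letters ACGTG, the core of the element bound by hypoxia-inducible factors, were found on either strand in 17 of the 38 genes (44.7%), against 21.8% of 27025 genes in the table. The E-box letters CACGTG, which contain ACGTG, were found in 5 (13.2%), against 8.09%. Ldha had 5 matches of ACGTG in a promoter, Pfkm and Pcx 3 each, and Hk1, Hk2, Pgk1, Pkm, Pdk2 and Ogdh 2 each. The strands were counted separately, so each CACGTG gives 2 matches at 1 site. The first promoter listed held 2 CACGTG for Ldha and 1 each for Pfkm, Pcx and Pdk2, so their distinct sites are fewer than their matches. Counted per promoter, ACGTG stood in 41.4% of 58 member promoters against 19.6% of 32851, and CACGTG in 12.1% against 7.15%. A match is a description of sequence. Base composition, expression and the number of promoters per gene were not matched, and the background includes genes that did not pass the count filter. Of the 7 members whose groups did not overlap, Idh3a had no entry, the promoters of Pfkp, Eno1, Dlat and Suclg1 held none, and Hk2 and Aldoa had matches. The single Hk2 promoter held 2, which begin at positions -226 and -52 relative to the start. Aldoa has 3 promoters in the table. The one farthest upstream, with its start at 126800447, held none. The 2 overlapping ones farther downstream, with starts at 126799254 and 126799178, share 1 match. A stretch around the Hk2 match nearer to the start and one around the Aldoa match are shown with the match in capitals, where CACGT is ACGTG read on the opposite strand: Hk2 at chr6:82774475-82774534 and Aldoa at chr7:126799349-126799408, both genes on the minus strand.

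Hk2: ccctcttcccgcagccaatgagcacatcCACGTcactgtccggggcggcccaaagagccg

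Aldoa: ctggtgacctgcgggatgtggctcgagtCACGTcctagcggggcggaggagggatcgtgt

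Stretches were shown only for members whose groups did not overlap, so the lower levels of Hk2 and Aldoa are no separate result. Neither gene passed the adjusted threshold. Ldha, Pfkm, Pcx and Pgk1 also had matches, with overlapping groups.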

How the data were processed

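The deposited values were raw read counts per Ensembl gene, 1 table per library. Per the submitters' processing notes, the tools included bcl2fastq, HISAT2 and HTSeq, with mm10 as build, and versions, annotation release and strand setting are not given in the sources used here. Rows naming no gene held 32.4% to 40.7% of reads and were left out. Of 52636 genes, 52489 matched a symbol in GENCODE M21 (GRCm38) and 147 did not. Counts were tested with edgeR 4.0.16 (R 4.3.3): filterByExpr with a minimum count of 10, TMM, quasi-likelihood with robust shrinkage, Benjamini-Hochberg adjustment over all genes, threshold 0.05. The procedure was tested on simulated counts. SE was the absolute log2 fold change over the root of F, and intervals used the fit's degrees of freedom. Groups came from the sample titles. DESeq2 1.42.0 and other settings served as alternatives. Isozyme shares used counts per kilobase of exon and an exact permutation test.

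The members and lists were chosen with earlier results of these data known. All members are named, together with called partner genes or, with none called, the 4 of smallest p. Overlapping and antisense genes cannot be separated with certainty: 10.2% of the exon bases of Pfkm and 15.3% of those of Pkm lie in another gene on the same strand, and 16.1% of Pdha1 and 11.5% of Gpi1 in one on the opposite strand. Some items are not reported here.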

Additional observations from a re-analysis of the deposited data

How the results depend on the processing

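No member was called with DESeq2, without the count filter, without robust shrinkage, with length and GC correction or without any 1 library; library totals called 1, Idh3a. The genes called over all genes were 259 higher and 22 lower with library totals, against 84 and 45, 279 and 239 without a filter on low counts, and 21 and 5 without robust shrinkage. Without 1 library at a time they ran from 31 to 83 higher and from 14 to 72 lower: irradiated replicate 1 gave the lowest counts, untreated replicates 1 and 2 gave 29 and 21 lower, and irradiated replicate 3 gave 72. With the replicate number as a replicate block, 39 were higher and 14 lower and the members had 0 calls. The labels name no source shared by same-numbered libraries. Correlations of same-numbered deviations from the group means were 0.04, -0.13 and -0.10, and those of differently numbered ones ran from -0.06 to 0.15. With 3 libraries per group these values cannot show whether a source was shared. The members' median was 0.16 with library totals, and -0.02 to 0.07 elsewhere. Of the 39 members, 22 changed sign in at least 1 of 12 alternatives, each with a log2 fold change of at most 0.13 in size in the main fit. With library totals the log2 values that changed sign were 0.0097 for Gpi1, 0.094 for Pfkl, 0.0521 for Pgam1, 0.0762 for Pkm, 0.0606 for Ldha, 0.1189 for Pdhb, 0.0572 for Pdk2, 0.1148 for Idh3b, 0.0124 for Idh3g, 0.0537 for Fh1, 0.0888 for Mdh1 and 0.1321 for Mdh2. With length and GC correction they were -0.0147 for Hk1, -0.0332 for Pdha1, -0.0365 for Pdk4, -0.0772 for Dlst and -0.0196 for Sucla2. Without a filter they were -0.0016 for Idh2. Leaving out 1 library gave -0.0629 to 0.1064 for Hk1, -0.0111 to 0.1371 for Tpi1, -0.3583 to 0.0435 for Pgam1, -0.2137 to 0.0562 for Ldha, -0.0822 to 0.0997 for Ldhb, -0.1071 to 0.1189 for Pdha1, -0.0973 to 0.0398 for Pdhb, -0.1994 to 0.0012 for Pdk2, -0.3305 to 0.7375 for Pdk4, -0.0412 to 0.0432 for Idh2, -0.1021 to 0.0791 for Idh3b, -0.0089 to 0.1825 for Ogdh, -0.0427 to 0.1015 for Dlst, -0.0328 to 0.1589 for Dld, -0.0259 to 0.0992 for Sucla2, -0.1109 to 0.0017 for Mdh1 and -0.0911 to 0.0721 for Mdh2. Among isozyme shares, raw counts in place of counts per kilobase gave differences of -6.06 percentage points for Pfkm, 5.70 for Pfkp and 3.23 for Pdk1, against -3.30, 2.21 and 1.87. The length of the longest coding transcript, chosen after seeing the data, gave 4.69 for Pfkp. Leaving out 1 library gave -3.73 to 0.564 for Ldha, -1.33 to 3.85 for Pdk4 and -1.83 to 0.177 for Sucla2: the sign changed without irradiated replicate 3 for Ldha and Sucla2, and for Pdk4 in 3 of the 6 cases (-0.028 without untreated replicate 1, -0.843 without irradiated replicate 2, -1.33 without untreated replicate 3). The cause of these changes was not tested. Depth limits Aldoc most, with 14 counts in its lowest library. At an unadjusted p under 0.05, edgeR had 5 members (12.8%, against 15.0% of all genes) and edgeR with library totals 13 (33.3%, against 16.3%). DESeq2 had 2 (5.13%, against 5.79% of 25403 genes, with no filter on low counts).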
